A study of Mus musculus with 48 samples.

Results

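The genes described here are 10 members of the BCL2 family, the proteins that decide whether the outer mitochondrial membrane is opened during apoptosis, in mouse sarcomas sampled after radiation and PD-1 blockade. The members are Bcl2, Bcl2l1, Mcl1, Bax, Bak1, Bid, Bad, Bcl2l11, Bbc3 and Pmaip1. They were taken by name, as the rows of the count table whose Ensembl mouse identifiers carry these symbols, and they are 10 of 36854 genes in the table. Each symbol matched 1 row, and 10 of 10 passed the filter on low counts in every fit.

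The family works as a balance of 3 roles. Bcl2, Bcl2l1 (which encodes BCL-XL) and Mcl1 are anti-apoptotic and hold the other members in check. Bax and Bak1 are the effectors that form pores in the mitochondrial outer membrane and release cytochrome c. Bid, Bad, Bcl2l11 (BIM), Bbc3 (PUMA) and Pmaip1 (NOXA) are BH3-only proteins, which carry stress signals to the other members. After ionizing radiation p53 is known as a direct activator of Bax, Bbc3 and Pmaip1, and p53 is the gene that was deleted from the tumour cells of this model.

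RNA was sequenced from 48 soft tissue sarcomas of 129/SvJae mice, in 8 groups. The 32 primary tumours arose in p53FL/FL mice of 6 to 10 weeks of age, after an adenovirus carrying Cre recombinase was put into the gastrocnemius muscle together with 300 µg of the carcinogen 3-methylcholanthrene (MCA). The 16 allografts grew from 50000 cells of 1 primary tumour cell line, transplanted with matrigel into the same muscle of syngeneic mice, so the properties of that line and of transplantation cannot be told apart. At a volume of about 150 mm3 each tumour received 200 µg of an antibody to PD-1 (muDX400) or of its isotype control, followed at once by 0 or 20 Gy to the left hind limb, and it was collected on day 3. Every dose and antibody combination held 4 allografts and 8 primary tumours. All 8 groups share the p53 deletion in the tumour cells, while the host cells in each tumour keep p53. Whole-gene counts of Trp53, at 19.9 to 62.7 CPM (read counts scaled to a total of 1000000) over the 48 tumours, therefore do not check the deletion.

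The deposited read counts came to 31.8 to 54.01 M per tumour (M is 1000000 counts), with a median of 41.2 M. The 6 mesenchymal markers of sarcoma cells were high in every tumour, at 5475 to 60047 CPM summed. Host cells were in every tumour too: no gene of the marker lists was at 0 throughout any group. The 5 leukocyte markers summed to 480 to 1135 CPM in the 0 Gy isotype tumours of both kinds. The 8 skeletal muscle markers ranged most, from 13.5 to 78955 CPM, and 9 tumours passed 10000 CPM. These were 5 primary tumours given 20 Gy (isotype replicates 1 and 4, anti-PD-1 replicates 3, 4 and 8) and 1 allograft of each group (isotype replicate 3 and anti-PD-1 replicate 1 at 0 Gy, isotype replicate 2 and anti-PD-1 replicate 2 at 20 Gy), at 11482.5 to 20050 CPM in the allografts. In such bulk samples fewer cells of a type and less RNA per cell cannot be told apart. The p-values below measure the spread between tumours within groups, estimated over all groups of a fit. Among allografts that is the spread between grafts of 1 cell line.

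Because Bax, Bbc3 and Pmaip1 are textbook p53 targets, the letters of p53 sites were looked for in the members' promoters. The promoters were RefSeq windows of 250 bases before to 50 after a transcription start. The assembly was GRCm38.p6, the mm10 build named in the submitters' processing notes. Windows of 9 of 10 members were scanned, as 15 windows. The promoter of Pmaip1 was not scanned, so the counts below do not cover this p53 target. On either strand, the p53 decamer consensus was found in 1 of the 15 windows, that of Bax, and in 8.36% of all 32851 windows. A full site, which is a pair of such decamers with a spacer of 0 to 13 bases and at most 1 mismatch in each, was found in 0 of the 15 windows and in 2.71% of all. The STAT site TTCNNNGAA and the core of the interferon-stimulated response element were in 0 of the 15 windows, against 8.3% and 3.44% of all windows. The NF-kB consensus was in 2 windows, of Bbc3 and Bcl2l1, against 8.46% of all. The Bax window is shown because Bax was the member with the smallest p-value in the comparisons of dose in primary tumours. It lies on the minus strand at chr7:45466849-45467148 in GRCm38.p6 and is written 5′ to 3′ with the decamer in capitals, at -201 to -192 from the start:
Bax promoter: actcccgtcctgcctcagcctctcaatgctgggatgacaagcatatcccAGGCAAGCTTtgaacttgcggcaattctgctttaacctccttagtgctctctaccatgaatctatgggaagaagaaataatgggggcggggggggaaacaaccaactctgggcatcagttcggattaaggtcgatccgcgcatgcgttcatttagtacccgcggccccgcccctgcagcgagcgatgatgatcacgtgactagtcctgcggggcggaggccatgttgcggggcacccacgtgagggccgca
A match of letters is a description of the window and not a binding site.

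Levels between genes were compared per length, as CPM per kilobase of the union of exons in GENCODE M21. Mcl1, a short-lived anti-apoptotic protein, had the highest mean in 8 of 8 groups, and Bak1 was second in 8 of 8. In allografts with 0 Gy and isotype, Mcl1 stood at 74.8 ± 3.64 CPM per kb (SD, n = 4) and Bak1 at 60.6 ± 11.7, with overlapping ranges. The next members lay far lower there: Bad at 15.9, Bax at 13.0 and Bcl2l1 at 12.2 CPM per kb, an order in which neighbours overlapped. Bid (8.09), Bcl2l11 (6.52), Bbc3 (3.65), Pmaip1 (3.35) and Bcl2 (2.43 CPM per kb) followed, and within the last 3 each range overlapped that of its neighbour.

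Primary tumours had the same first 2 genes. With 0 Gy and isotype Mcl1 stood at 76.7 and Bak1 at 49.9 CPM per kb, then Bcl2l1 at 20.7, Bad at 16.3 and Bax at 12.4, where again only Bak1 and Bcl2l1 were separated. Bcl2 at 3.30 and Pmaip1 at 2.11 CPM per kb were the lowest. The 3 anti-apoptotic genes together held 44.6% ± 0.707 (SD, n = 4) of the members' summed CPM per kb in these allografts, and 54.7% ± 4.06 (SD, n = 8) in primary tumours with 20 Gy and anti-PD-1, the lowest and the highest mean share of the 8 groups. Mcl1 and Bak1 dominate these sums, so the share mostly follows those 2 genes.

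**Figure D1:**
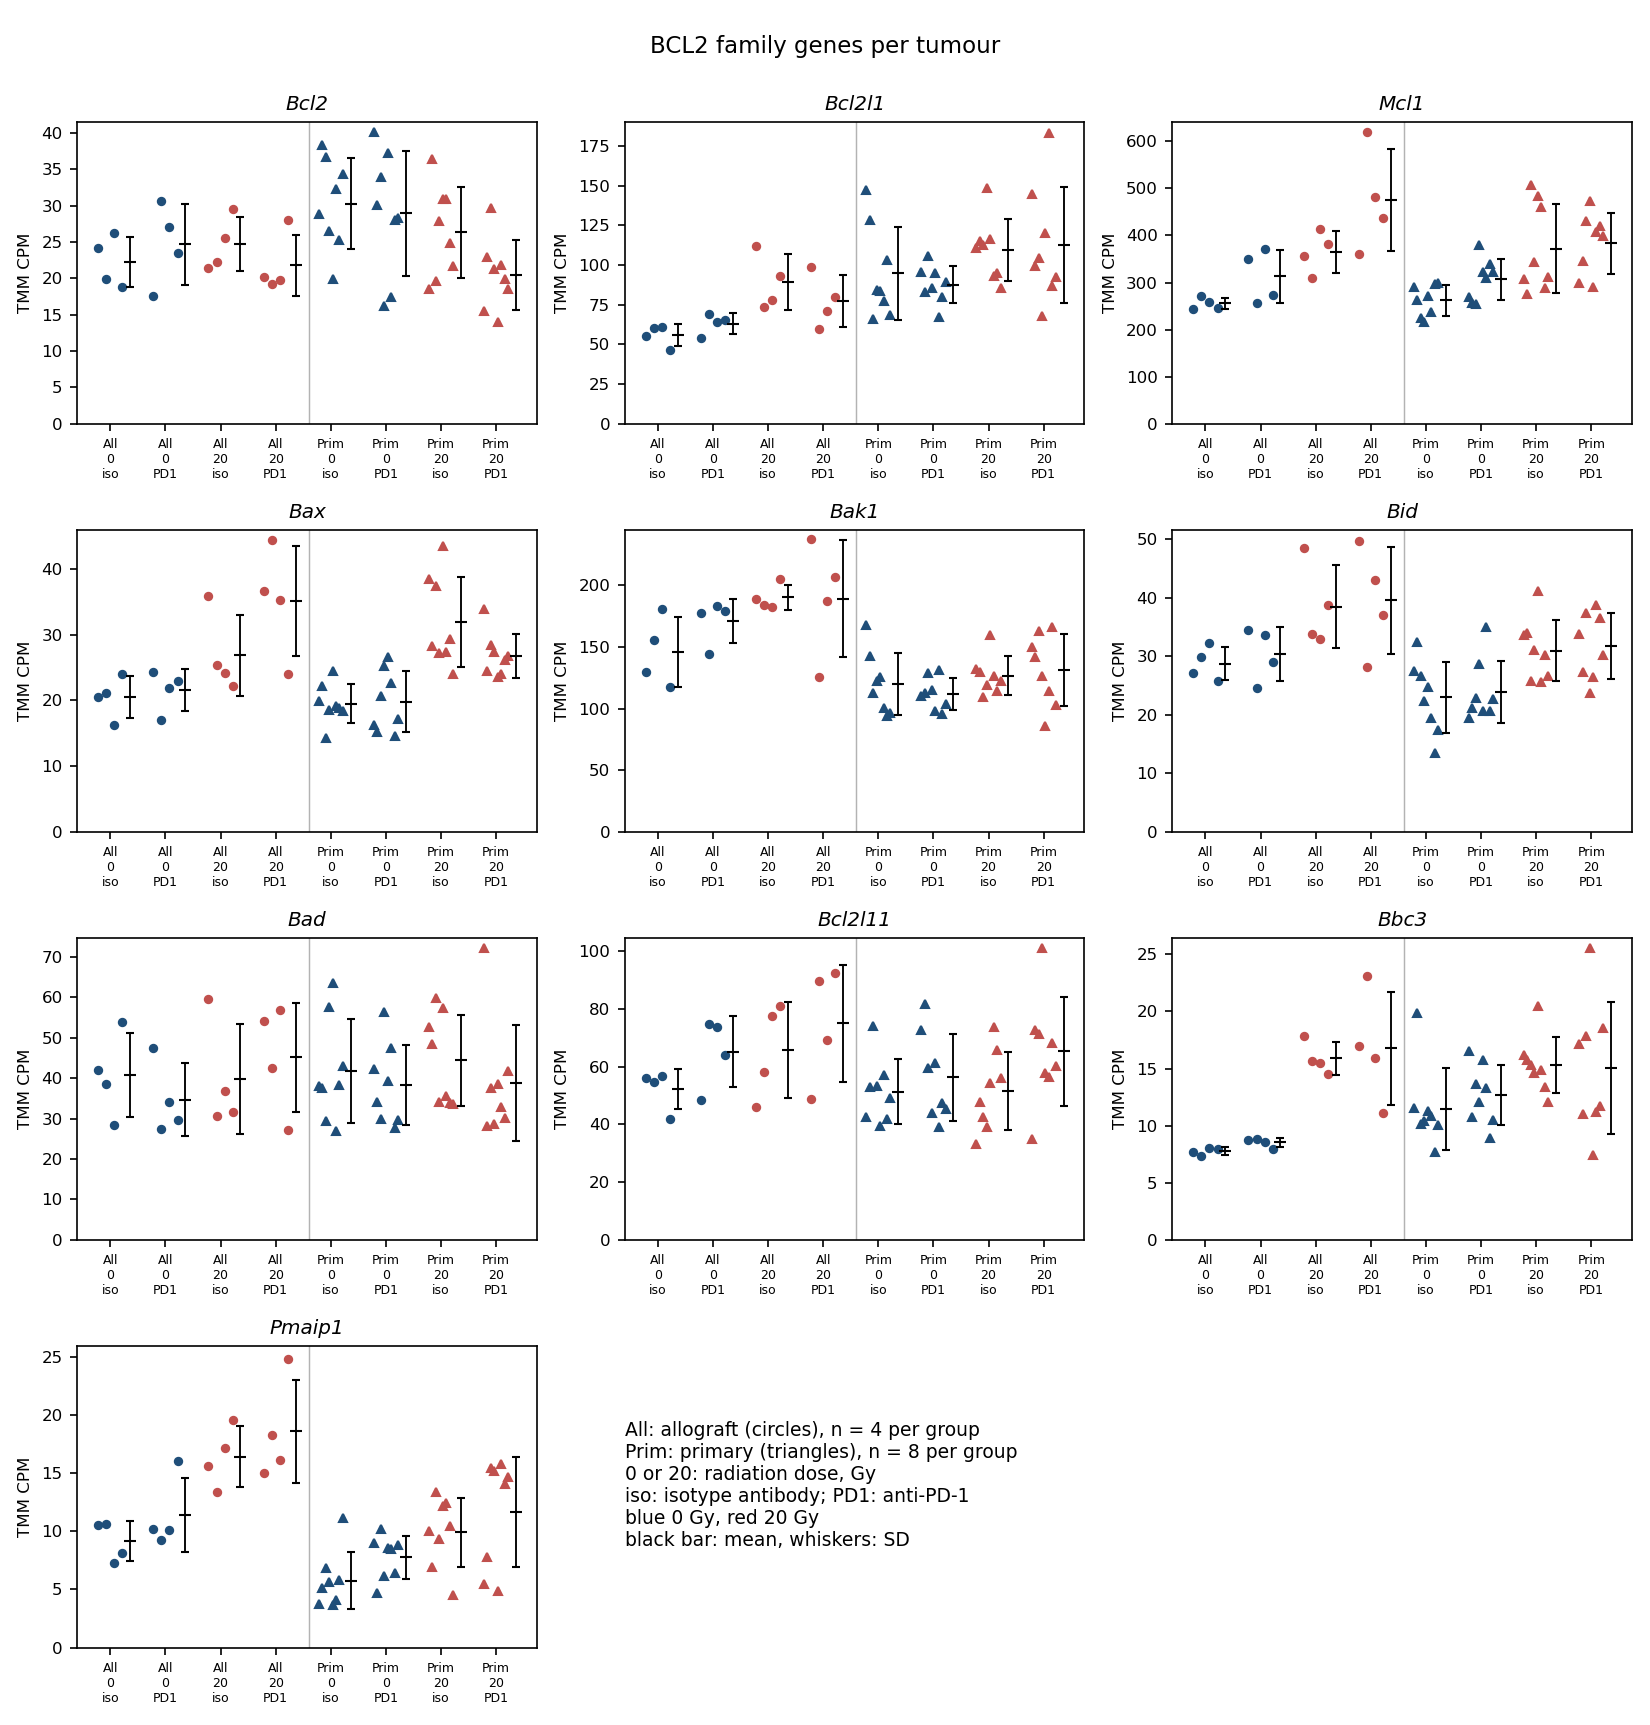
Level of each of the 10 members in every tumour, in CPM with TMM scaling (vertical axis, from 0), by group (horizontal axis). Circles are allografts (n = 4 a group), triangles primary tumours (n = 8), blue 0 Gy and red 20 Gy, and black bars the mean ± SD. The 4 allografts with 20 Gy and isotype sit above the 4 with 0 Gy for Bbc3 and Pmaip1, and the primary groups overlap for every member.

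After radiation several members of the family rose. Averaged over both antibodies, 6 of 10 members rose in allografts after 20 Gy (Bbc3, Pmaip1, Mcl1, Bcl2l1, Bax and Bid) and 5 of 10 rose in primary tumours (Bax, Pmaip1, Bid, Mcl1 and Bcl2l1), and none fell. Bak1, Bad and Bcl2l11 passed the test in none of the 17 comparisons made here with every tumour fitted. The changes were modest: the median log2 fold change of the 10 members was 0.47 in allografts and 0.34 in primary tumours, against -0.01 and 0.00 over all genes tested. A member was called where edgeR's quasi-likelihood test gave a Benjamini-Hochberg adjusted p under 0.05 over all genes of the fit. By that rule 13.7% of 17746 genes were called in allografts (9.56% higher), and 26.3% of 17770 genes in primary tumours (14.6% higher).

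Each antibody was then taken alone. In allografts with isotype 3 of 10 rose (Bbc3, Bcl2l1 and Pmaip1), where 5.14% of all genes were called and 4.40% were called higher. In allografts with anti-PD-1 2 of 10 rose (Bbc3 and Bax), against 3.96% of all genes called and 3.13% higher. In primary tumours with isotype 4 of 10 rose (Bax, Mcl1, Pmaip1 and Bid), against 14.5% and 7.85% higher, and with anti-PD-1 1 of 10 (Bax), against 7.92% and 6.06% higher. The averaged and the split comparisons use the same tumours and are not independent of each other. The animal numbers in the labels begin with 4 or 5, a difference whose meaning is not given; 4 came first in 0 of 4 allografts with 0 Gy and isotype, in 1 of 4 with 0 Gy and anti-PD-1, in 3 of 4 with 20 Gy and isotype and in 1 of 4 with both treatments. With that digit as a covariate, 1 of 10 members was called in allografts with isotype, 1 with anti-PD-1 and 5 averaged over antibodies, where Bid lost its call (edgeR adjusted p = 0.103). In that fit 196, 670 and 2032 of 17746 genes were called in these 3 comparisons.

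**Figure D2:**
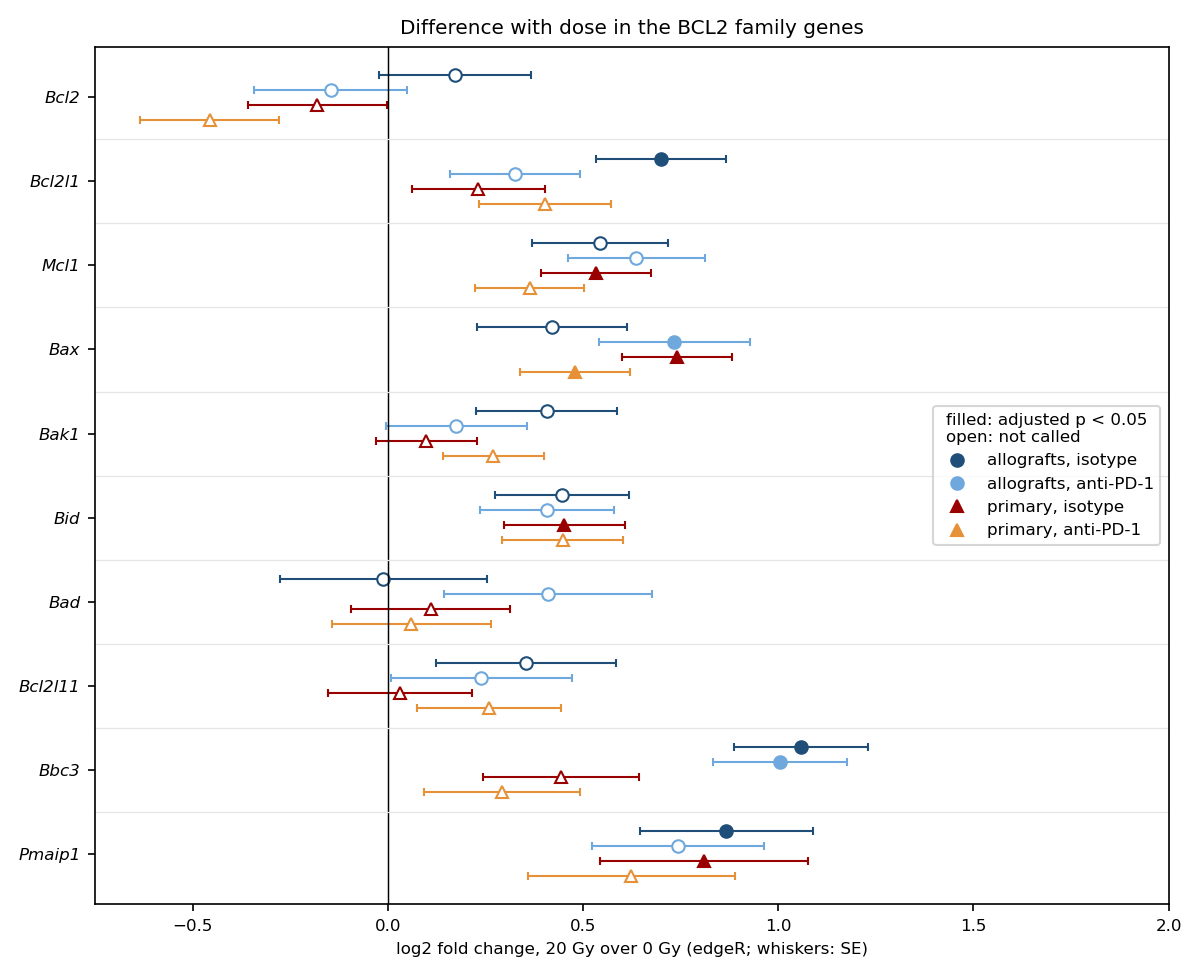
Log2 fold change of each member at 20 Gy against 0 Gy (horizontal axis, error bars are standard errors) in the 4 comparisons by tumour kind and antibody. Filled symbols passed the adjusted p of 0.05 in edgeR's quasi-likelihood test and open symbols did not. Bbc3 is farthest right in both allograft comparisons, at 1.06 and 1.004, and in primary tumours with isotype Pmaip1 lies at 0.81 and Bax at 0.74.

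Markers of other cells moved with the dose, and their genes are counted averaged over antibodies unless 1 is named. Leukocyte markers rose for 5 of 5 genes in both kinds of tumour. With isotype allografts summed to 580 to 1135 CPM at 0 Gy and 1447 to 2164 CPM at 20 Gy. The matching primary tumours summed to 480 to 791 and 797 to 1909 CPM. With anti-PD-1 alone 3 of 5 rose in allografts (605 to 1417 and 1913 to 2501 CPM). In primary tumours 2 of 5 rose (494 to 833 and 392 to 1981 CPM). Macrophage markers rose for 4 of 6 genes in both kinds, and neutrophil markers rose for 4 of 7 in primary tumours (median log2 fold change 2.28) and 1 of 7 in allografts. In primary tumours 2 of 7 neutrophil markers rose with isotype alone and 3 of 7 with anti-PD-1 alone. Their summed level did not rise with isotype, at medians of 243 CPM at 0 Gy and 235 CPM at 20 Gy. With anti-PD-1 the medians were 265 and 737 CPM. T cell and B cell markers were called for 0 genes in both kinds, the endothelial markers rose for 1 of 4 in allografts and 0 of 4 in primary tumours, and the mesenchymal markers fell for 0 of 6 and 1 of 6 in that order. The cell cycle genes fell for 3 of 6 in allografts and 6 of 6 in primary tumours. Skeletal muscle markers were called for 0 of 8 genes in allografts and rose for 6 of 8 in primary tumours. Their summed medians in primary tumours were 1784 CPM at 0 Gy and 1407 CPM at 20 Gy with isotype. With anti-PD-1 those medians were 1426 and 1908 CPM. The part of these cells in the members' changes was not tested. Without the 5 primary tumours rich in muscle, an alternative chosen after seeing the data, 4 of 10 members rose averaged over antibodies (Pmaip1 lost its call at a log2 fold change of 0.60, adjusted p = 0.0536), 2 of 10 with isotype and 0 of 10 with anti-PD-1 by edgeR's quasi-likelihood test. Fewer genes of the whole table were called there too, at 17.3%, 13% and 2.7% of 18248 genes in that order. Without the 4 allografts rich in muscle, also chosen after seeing the data, 6 of 10 members rose averaged over antibodies (Bax lost its call, adjusted p = 0.0505, and Bak1 gained one), against 12.4% of all genes called. In that fit 2 of 10 rose with isotype and 1 of 10 with anti-PD-1, against 6.76% and 1.2% of all genes called.

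Mcl1 was the most abundant member and rose in both kinds of tumour. In allografts its levels were 245, 272, 259 and 247 CPM with 0 Gy and isotype and 357, 309, 415 and 382 CPM with 20 Gy and isotype. With anti-PD-1 they were 351, 257, 371 and 274 CPM at 0 Gy and 361, 621, 482 and 438 CPM at 20 Gy. The isotype groups did not overlap, while 1 of the anti-PD-1 tumours at 0 Gy, at 371 CPM, lay above the lowest at 20 Gy. Averaged over antibodies the log2 fold change was 0.59 (SE 0.12, edgeR adjusted p = 0.00473), and it was 0.54 with isotype (adjusted p = 0.0926) and 0.64 with anti-PD-1 (adjusted p = 0.0562), neither of which passed. The isotype comparison passed in the fit of its 2 groups alone, and the anti-PD-1 comparison passed by DESeq2, as it did for Pmaip1.

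In primary tumours Mcl1 ran from 215 to 300 CPM (median 267) with 0 Gy and isotype and from 275 to 508 (median 327) with 20 Gy and isotype. With anti-PD-1 the range was 255 to 379 CPM (median 315) at 0 Gy and 291 to 474 (median 403) at 20 Gy. Both pairs of groups overlapped, with the irradiated medians higher. The averaged log2 fold change of 0.45 (SE 0.10) passed edgeR's test at an adjusted p of 0.00113, and so did that with isotype, at 0.53 (SE 0.14, adjusted p = 0.00966). Over the 48 tumours Mcl1 correlated with the summed leukocyte markers at r = 0.75, and at r = 0.57 with group means removed. With the cell cycle genes it was r = -0.69, and -0.54 with group means removed. These values describe tumours that share their groups and their host tissue.

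Bcl2l1, which keeps many cell types alive, rose in allografts with isotype. Its levels there were 55.5, 60.7, 61.0 and 46.3 CPM at 0 Gy and 112.2, 73.5, 78.1 and 93.1 CPM at 20 Gy, without overlap. With anti-PD-1 they were 53.97, 69.0, 63.9 and 65.5 CPM at 0 Gy and 98.8, 59.9, 71.0 and 80.2 CPM at 20 Gy, where 1 irradiated tumour fell among the unirradiated ones. The log2 fold change was 0.70 with isotype (SE 0.17, edgeR adjusted p = 0.0257), 0.32 with anti-PD-1 (adjusted p = 0.302) and 0.51 averaged (SE 0.12, adjusted p = 0.00882). The isotype call was lost without 0 Gy isotype replicate 1, 2 or 4 or 20 Gy isotype replicate 1 or 4, with an adjusted p of up to 0.0906. With the covariate for the animal number the log2 fold change was 0.45 (edgeR adjusted p = 0.262), a change of over 1.5 times, and the call was also lost in the fit of all 48 tumours. In primary tumours its median was 83.7 CPM with isotype and 87.4 with anti-PD-1 before radiation, and 111.5 and 102.03 CPM after 20 Gy, with wide overlap. The averaged log2 fold change of 0.32 (SE 0.12) was close to the threshold (edgeR adjusted p = 0.0491) and lost its call in 17 of 32 fits that left out 1 tumour each, where the adjusted p reached 0.0962, and without the filter or with either covariate (up to 0.0784). Its correlation with leukocyte markers over the 48 tumours was r = -0.03. With T cell, B cell and neutrophil markers it was -0.50, -0.38 and 0.39 (-0.35, -0.36 and 0.33 with group means removed).

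Bcl2, the founding anti-apoptotic gene, was not called by the main test in any comparison of dose alone. Allografts held 24.1, 19.9, 26.2 and 18.8 CPM with 0 Gy and isotype and 21.3, 22.2, 25.6 and 29.5 CPM with 20 Gy and isotype. With anti-PD-1 they held 17.5, 30.6, 27.0 and 23.5 CPM at 0 Gy and 20.1, 19.2, 19.8 and 27.9 CPM at 20 Gy. All 4 groups overlapped, and the averaged comparison was not called. In unirradiated primary tumours the median was 30.5 CPM (range 19.9 to 38.3) with isotype and 29.2 CPM (16.3 to 40.2) with anti-PD-1. At 20 Gy they were 26.3 CPM (18.5 to 36.4) and 20.6 CPM (14.04 to 29.7), lower with both antibodies but overlapping. The averaged log2 fold change was -0.32 and missed the threshold (edgeR adjusted p = 0.0596), but it passed with the muscle covariate and in the fit of all 48 tumours.

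Of the effectors, Bax was called by the main test and Bak1 was not. No test compared their changes with each other. In primary tumours with isotype it ran from 14.3 to 24.5 CPM (median 18.9) at 0 Gy and from 24.0 to 43.6 CPM (median 28.8) at 20 Gy. With anti-PD-1 it ran from 14.5 to 26.6 CPM (median 18.9) at 0 Gy and from 23.5 to 33.9 CPM (median 26.4) at 20 Gy. The isotype groups overlapped only at the edge of their ranges, while with anti-PD-1 4 of 8 irradiated tumours lay within the unirradiated range. The log2 fold change was 0.74 with isotype (SE 0.14, edgeR adjusted p = 0.000625), 0.48 with anti-PD-1 (SE 0.14, adjusted p = 0.0322) and 0.61 averaged (SE 0.10, adjusted p = 3.62e-05). The anti-PD-1 call was lost when any 1 of 7 tumours was left out (0 Gy replicates 1, 2, 7 and 8 and 20 Gy replicates 1, 3 and 4), with an adjusted p of up to 0.0699, and without the muscle-rich tumours, at a log2 fold change of 0.45 and an adjusted p of 0.156. It was also lost without the filter, with the covariate for the animal number and in the fit of 2 groups.

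In allografts Bax was at 20.6, 21.1, 16.2 and 24.0 CPM with 0 Gy and isotype and at 35.9, 25.4, 24.1 and 22.1 CPM with 20 Gy. With anti-PD-1 it was at 24.4, 17.02, 21.8 and 22.9 CPM at 0 Gy and at 36.6, 44.4, 35.2 and 24.1 CPM at 20 Gy. In each pair 1 irradiated tumour lay within the unirradiated range. The log2 fold change was 0.73 with anti-PD-1 (SE 0.19, edgeR adjusted p = 0.0474), 0.42 with isotype (adjusted p = 0.261) and 0.58 averaged (SE 0.14, adjusted p = 0.0104). The anti-PD-1 call was lost in 13 of 16 fits that left out 1 tumour each, all but those without 0 Gy isotype replicate 3, 20 Gy isotype replicate 1 or 20 Gy anti-PD-1 replicate 4, and the adjusted p reached 0.158. It was also lost under 7 of 8 other alternatives, DESeq2 being the exception, with an adjusted p of up to 0.173. The gene lies at chr7:45461697-45466898 on the minus strand (mm10, GENCODE M21), and no other gene of the table overlaps it.

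Bak1, the other effector, was called in no comparison with every tumour fitted. Allografts held 130, 155, 181 and 117.4 CPM with 0 Gy and isotype and 189, 184, 182 and 205 CPM with 20 Gy and isotype, which did not overlap. With anti-PD-1 the values were 178, 144.4, 184 and 179 CPM at 0 Gy and 237, 125.4, 187 and 207 CPM at 20 Gy, and the lowest of all 8 was an irradiated tumour. The log2 fold change with isotype was 0.41 (SE 0.18) and did not pass edgeR's test (adjusted p = 0.245). In primary tumours the medians were 117.4, 111.3, 124.6 and 134.03 CPM over the 4 groups, in the order 0 Gy isotype, 0 Gy anti-PD-1, 20 Gy isotype and 20 Gy anti-PD-1. The log2 fold changes of 0.10 (SE 0.13) with isotype and 0.27 (SE 0.13) with anti-PD-1 were not called either. The gene Ggnbp1 overlaps Bak1 on the opposite strand. The strand setting of the counting is not given in the sources used here, and without strand the reads of overlapping genes cannot be told apart.

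Bbc3 had the highest fold change of the 10 members in allografts. Its levels were 7.70, 7.31, 8.08 and 7.97 CPM with 0 Gy and isotype and 17.9, 15.7, 15.5 and 14.5 CPM with 20 Gy and isotype. With anti-PD-1 they were 8.76, 8.85, 8.53 and 7.98 CPM at 0 Gy and 17.01, 23.1, 15.9 and 11.1 CPM at 20 Gy. Neither pair overlapped, and the 8 unirradiated tumours lay within a narrow range. The level about doubled, with a fold change of 2.04 averaged over antibodies (log2 1.03, SE 0.12, edgeR adjusted p = 0.000105), log2 1.06 with isotype (SE 0.17, adjusted p = 0.0029) and 1.004 with anti-PD-1 (SE 0.17, adjusted p = 0.00857). The anti-PD-1 call was lost in the fit of all 48 tumours and in that of the 2 groups alone, with an edgeR adjusted p of up to 0.111.

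In primary tumours Bbc3 spread more. It ran from 7.65 to 19.9 CPM (median 10.6) with 0 Gy and isotype and from 12.05 to 20.5 CPM (median 15.1) with 20 Gy. With anti-PD-1 the range was 8.94 to 16.5 CPM (median 12.7) at 0 Gy and 7.39 to 25.5 CPM (median 14.4) at 20 Gy, where the lowest of the 16 tumours was an irradiated one. The averaged log2 fold change of 0.37 (SE 0.14) missed the threshold (edgeR adjusted p = 0.0519), but it passed by DESeq2, with DESeq2's size factors and in the fit of all 48 tumours. Bbc3 correlated with the summed macrophage markers at r = 0.69 over the 48 tumours, and at r = 0.61 with group means removed. With the leukocyte markers it was 0.56 and with the cell cycle genes -0.61 (0.49 and -0.45 with group means removed). The gene lies at chr7:16308393-16318205 on the plus strand.

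Pmaip1, the BH3-only protein that binds MCL1, rose in both kinds of tumour. Allografts held 10.6, 10.7, 7.31 and 8.13 CPM with 0 Gy and isotype and 15.6, 13.4, 17.1 and 19.6 CPM with 20 Gy and isotype. With anti-PD-1 they held 10.2, 9.22, 10.1 and 16.1 CPM at 0 Gy and 15.002, 18.3, 16.1 and 24.8 CPM at 20 Gy. The isotype groups did not overlap, and with anti-PD-1 the overlap came from 1 unirradiated tumour, replicate 4 at 16.1 CPM. The log2 fold change was 0.80 averaged (SE 0.16, edgeR adjusted p = 0.0028), 0.87 with isotype (SE 0.22, adjusted p = 0.0336) and 0.74 with anti-PD-1 (adjusted p = 0.0732). The isotype call was lost without any 1 of 7 of its 8 tumours (20 Gy replicate 2 being the exception), with an adjusted p of up to 0.114. It was lost too with the covariate for the animal number (edgeR adjusted p = 0.11), in the fit of all 48 tumours (0.248) and without the muscle-rich allografts (0.0835).

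In primary tumours Pmaip1 ran from 3.70 to 11.1 CPM (median 5.39) with 0 Gy and isotype and from 4.49 to 13.3 CPM (median 10.2) with 20 Gy and isotype. With anti-PD-1 it ran from 4.68 to 10.2 CPM (median 8.51) at 0 Gy and from 4.88 to 15.8 CPM (median 14.4) at 20 Gy. Some irradiated tumours stayed at the level of the lowest unirradiated ones. The averaged log2 fold change was 0.72 (SE 0.19, edgeR adjusted p = 0.00535) and that with isotype 0.81 (SE 0.27, adjusted p = 0.0381). The isotype call was lost in 9 of 32 fits that left out 1 tumour each (0 Gy isotype replicates 1, 2, 5 and 6 and 20 Gy isotype replicates 1, 3, 5, 6 and 7), with an adjusted p of up to 0.0788. It was also lost without the filter, with the muscle covariate (up to 0.0668 by edgeR) and without the muscle-rich tumours (0.0559, at a log2 fold change of 0.86). Pmaip1 correlated with leukocyte markers at r = 0.70 over the 48 tumours and at r = 0.30 with group means removed.

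Bid, which links death receptors to mitochondria once caspase-8 cleaves it, rose in both kinds of tumour. Allografts held 27.1, 29.8, 32.2 and 25.8 CPM with 0 Gy and isotype and 48.4, 33.8, 32.9 and 38.7 CPM with 20 Gy and isotype. With anti-PD-1 they held 34.4, 24.5, 33.6 and 29.0 CPM at 0 Gy and 49.7, 28.2, 43.1 and 37.0 CPM at 20 Gy. The isotype groups were separated by a small gap, and with anti-PD-1 1 irradiated tumour lay among the unirradiated ones. The averaged log2 fold change was 0.43 (SE 0.12, edgeR adjusted p = 0.0285), a call that was lost in 9 of 16 fits that left out 1 tumour each, at an adjusted p of up to 0.0662, and also without the filter and in the fit of all 48 tumours. In primary tumours the median was 23.6 CPM at 0 Gy and 30.5 CPM at 20 Gy with isotype, and 21.8 and 31.99 CPM with anti-PD-1, and the averaged log2 fold change was 0.45 (SE 0.11, adjusted p = 0.00288). The call with isotype alone was lost in 8 of 32 fits that left out 1 tumour each (0 Gy isotype replicates 5 to 8, 0 Gy anti-PD-1 replicate 2, 20 Gy isotype replicates 1 and 5 and 20 Gy anti-PD-1 replicate 7), with an edgeR adjusted p of up to 0.0977. It was also lost without the filter, with the muscle covariate and without the muscle-rich tumours, at up to 0.0817. Without the muscle-rich tumours the log2 fold change of Bid with isotype was 0.46 (edgeR adjusted p = 0.0767). With anti-PD-1 alone Bid was called by DESeq2 and in the fit of all 48 tumours, though not by the main test. Bid overlaps Bcl2l13, another family member, on the opposite strand.

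Bad and Bcl2l11 were called in no comparison. Bad, which growth factor signalling keeps inactive, ranged from 27.1 to 59.7 CPM in the 16 allografts and from 26.9 to 72.3 CPM in the 32 primary tumours, and each dose pair overlapped almost completely. Its log2 fold change was -0.01 (SE 0.27) in allografts with isotype and 0.11 (SE 0.20) in primary tumours with isotype. Bcl2l11, which ends the life of many blood cells, had allograft means of 52.3 and 65.2 CPM at 0 Gy and 65.7 and 75.1 CPM at 20 Gy, isotype before anti-PD-1. The log2 fold changes were 0.35 (SE 0.23) and 0.24 (SE 0.23) and did not pass edgeR's test, which does not show that the levels were alike. Gpr137 overlaps Bad on the opposite strand.

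Members were also counted by whether their irradiated and unirradiated tumours overlapped. In allografts with isotype 6 of 10 members did not overlap (Bcl2l1, Mcl1, Bak1, Bid, Bbc3 and Pmaip1), against 14.3% of all genes tested. In allografts with anti-PD-1 it was 1 of 10 (Bbc3), against 8.82%. In primary tumours, with 8 a group, it was 0 of 10 with each antibody, against 1.96% of genes tested in the isotype pair and 0.433% in the anti-PD-1 pair.

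Tumours given both 20 Gy and anti-PD-1 were compared with tumours given neither. These comparisons share tumours with the dose comparisons above. In allografts 4 of 10 members rose, against 9.66% of all genes called and 7.43% called higher. The log2 fold changes of Bbc3, Pmaip1, Mcl1 and Bax were 1.13, 1.04, 0.91 and 0.79, each with an edgeR adjusted p of 0.0173 or lower. Without the muscle-rich allografts Bax (adjusted p = 0.143) and Pmaip1 (0.0515) lost their calls while Bcl2l1, Bid and Bak1 gained one, so that 5 of 10 were called by edgeR, against 7.64% of all genes. The call of Bax was also lost without 0 Gy isotype replicate 1 or 20 Gy anti-PD-1 replicate 2 (up to 0.0567 by edgeR) and in the fit of 2 groups, and that of Pmaip1 in the fit of all 48 tumours (0.069). In primary tumours 4 of 10 rose and 1 fell, against 13.8% called and 8.78% higher. Pmaip1 rose by 1.04 (SE 0.27), Mcl1 by 0.57 (SE 0.14), Bax by 0.49 (SE 0.14) and Bid by 0.49 (SE 0.15) on the log2 scale. The call of Bid was lost without 0 Gy isotype replicate 6 or 8 or 20 Gy anti-PD-1 replicate 3, 6 or 7, with an edgeR adjusted p of up to 0.062, and without the filter or in the fit of 2 groups.

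The member that fell was Bcl2, with a log2 fold change of -0.54 (SE 0.18, edgeR adjusted p = 0.0423) from a mean of 30.2 ± 6.27 CPM (SD, n = 8) to 20.5 ± 4.83 CPM (SD, n = 8). That call was lost in 24 of 32 fits that left out 1 tumour each, with an adjusted p of up to 0.0991, and without the filter, with DESeq2's size factors and in the fit of 2 groups. Without the 5 muscle-rich primary tumours, 0 of 10 members passed edgeR's test in this comparison, against 5.55% of all genes called. The directions were as before and the log2 fold changes were -0.64 for Bcl2 (edgeR adjusted p = 0.0688), 0.54 for Bid (0.0796), 0.48 for Bax (0.0997), 0.47 for Mcl1 (0.0923) and 0.78 for Pmaip1 (0.15). Those of Bcl2 and Bid were as large as with every tumour or larger, and those of Bax, Mcl1 and Pmaip1 were smaller.

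No member passed the test for the antibody. With anti-PD-1 against isotype, 0 of 10 members were called by edgeR at either dose in either kind of tumour, 0 had an unadjusted p under 0.05, and 0% of all genes were called in each of the 4 comparisons. Over all genes edgeR gave an unadjusted p under 0.05 for 299 and 682 genes in allografts at 0 and 20 Gy and for 412 and 1443 in primary tumours, and DESeq2 called 0, 0, 3 and 5 genes in that order. By DESeq2 0 members were called too, and 1 member had an unadjusted p under 0.05, in allografts at 20 Gy. The log2 fold changes of the members ran from -0.25 to 0.30 in allografts at 0 Gy and from -0.21 to 0.37 at 20 Gy. In primary tumours they ran from -0.14 to 0.42 at 0 Gy and from -0.36 to 0.35 at 20 Gy. With standard errors of 0.13 to 0.27 these comparisons do not show that the levels were alike.

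The test of whether the dose change differed between antibodies called 0 of 10 members in allografts and 0 of 10 in primary tumours by edgeR, with 0% of all genes called in both. No member had an unadjusted p under 0.05 by edgeR in either, and DESeq2 called 0 of 10 members in both. Over all genes 269 and 756 had an unadjusted p under 0.05 by edgeR, and DESeq2 called 0 and 1. So the larger number of members called with isotype than with anti-PD-1 is not shown to be a difference between the antibodies.

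Before radiation, primary tumours and allografts differed in 1 of 10 members, against 10.0% of all genes called, a share that is the same as that of the members. The animal number began with 4 in 0 of the 4 allografts and in 8 of the 8 primary tumours compared, so the kind of tumour and whatever that digit stands for cannot be told apart here. The 4 allografts also share 1 cell line, so the test does not measure a spread between lines. Bcl2l1 was higher in primary tumours by 0.75 on the log2 scale (SE 0.21, edgeR adjusted p = 0.0408), at 66.1 to 147 CPM against 46.3 to 61.0 CPM in the allografts, without overlap. That call was lost when any 1 of 7 of the 12 tumours was left out (each of the 4 allografts and primary replicates 2, 6 and 7), with an adjusted p of up to 0.137, and without the filter (0.0585). Bbc3 and Bcl2 were higher (log2 0.55 and 0.43) and Pmaip1 lower (-0.68) in primary tumours at an unadjusted p under 0.05, and these did not pass the adjusted test. T cell markers were lower in primary tumours for 4 of 7 genes, neutrophil markers for 3 of 7 and leukocyte markers for 1 of 5. Mesenchymal markers were higher for 2 of 6 genes (median log2 fold change 0.95) and macrophage markers for 1 of 6. The part of these cells in the result was not tested.

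Whether the dose change differed between the kinds of tumour was tested with an interaction term over all 48 tumours. With isotype 0 of 10 members were called by edgeR, 0 had an unadjusted p under 0.05, and 0.00517% of all genes were called. With anti-PD-1 0 of 10 were called, 1 had an unadjusted p under 0.05, and 0% of all genes were called, while DESeq2 called 0 members in both, and 4 and 3 of all genes. By edgeR 1914 and 922 of all genes had an unadjusted p under 0.05. The member with the unadjusted p was Bbc3, whose dose change was smaller in primary tumours by 0.72 on the log2 scale (interaction -0.72, SE 0.31, edgeR adjusted p = 0.968). With isotype its interaction was -0.61 (SE 0.31).

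Other members of the family were read from a list of 14 genes, of which 12 passed the filter and Bcl2l10 and Hrk did not. The largest rises were those of Bcl2a1a, Bcl2a1b and Bcl2a1d, anti-apoptotic genes known from myeloid and lymphoid cells and copies of one another. Their open reading frames, read from GENCODE M21 transcripts, are 519 bases long and differ at 11 positions between Bcl2a1a and Bcl2a1b, 7 between Bcl2a1a and Bcl2a1d and 6 between Bcl2a1b and Bcl2a1d. The first 60 coding bases are shown because they hold 6 of the positions that differ among the copies, in capitals:
Bcl2a1a: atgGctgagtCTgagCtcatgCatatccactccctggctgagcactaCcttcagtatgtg
Bcl2a1b: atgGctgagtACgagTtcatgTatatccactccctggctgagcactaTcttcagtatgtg
Bcl2a1d: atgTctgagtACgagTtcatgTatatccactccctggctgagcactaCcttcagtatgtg
At 97.9% to 98.8% identity many reads match more than 1 copy, so the split of counts among them is uncertain, and the 3 genes are also given as a sum.

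The summed Bcl2a1 level in allografts was 34.9, 26.2, 34.7 and 28.5 CPM with 0 Gy and isotype and 149.9, 63.9, 63.3 and 62.9 CPM with 20 Gy and isotype. With anti-PD-1 it was 66.2, 28.8, 55.8 and 25.0 CPM at 0 Gy and 117.3, 161, 218 and 64.3 CPM at 20 Gy. The isotype groups did not overlap, and with anti-PD-1 the lowest irradiated tumour fell just under the highest unirradiated one. In primary tumours the median went from 10.2 CPM (range 7.14 to 35.0) to 69.5 CPM (16.1 to 143.1) with isotype and from 16.7 CPM (9.71 to 23.2) to 44.1 CPM (12.5 to 90.7) with anti-PD-1. Averaged over antibodies, the log2 fold changes of Bcl2a1a, Bcl2a1b and Bcl2a1d were 1.74, 1.40 and 1.48 in allografts (edgeR adjusted p at most 0.00259). In primary tumours they were 2.19, 1.70 and 1.81 (adjusted p at most 5.88e-05).

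The summed Bcl2a1 level followed the leukocyte markers. Over the 48 tumours its log CPM correlated with theirs at r = 0.89, and at r = 0.71 with group means removed. Both are sums over the same libraries and the same mixture of cells, and the part of leukocytes in the rise of Bcl2a1 was not tested.

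**Figure D3:**
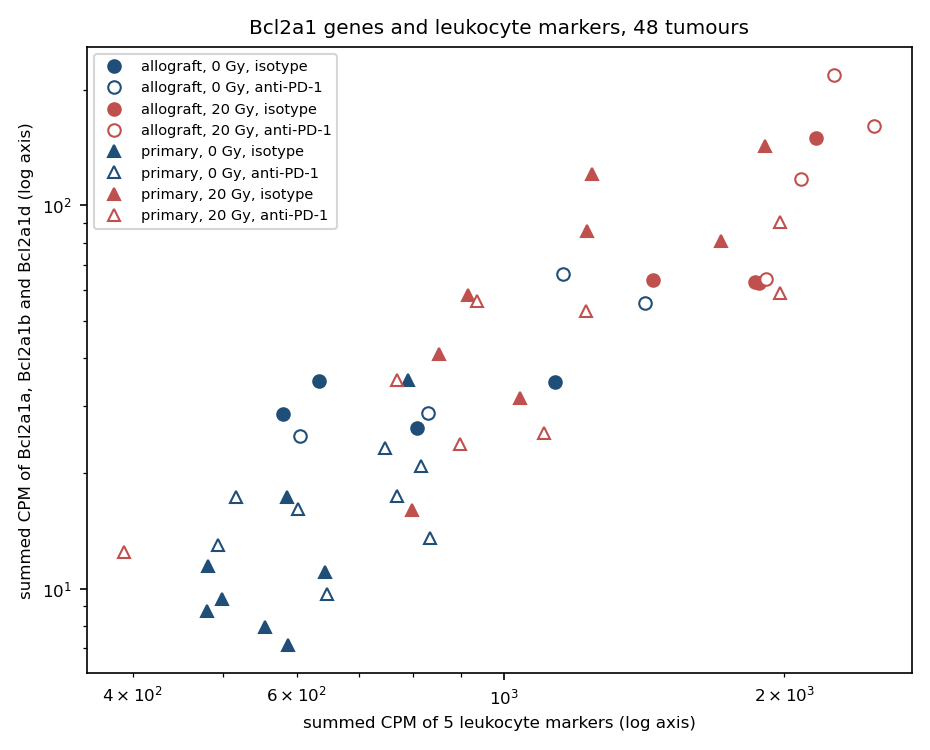
Summed level of Bcl2a1a, Bcl2a1b and Bcl2a1d (vertical, CPM) against the summed level of 5 leukocyte markers (horizontal, CPM) in 48 tumours, both on log axes. Circles are allografts, triangles primary tumours, blue 0 Gy and red 20 Gy. The tumours lie along 1 rising band (r = 0.89), with most irradiated tumours at its upper end.

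A pair of other family genes fell. Bok, a BAX-like protein, was at 35.6, 40.5, 21.6 and 50.5 CPM in allografts with 0 Gy and isotype and at 23.04, 18.5, 17.7 and 18.1 CPM with 20 Gy and isotype, where 1 irradiated tumour lay above the lowest unirradiated one. Its averaged log2 fold change was -0.87 in allografts (SE 0.21, edgeR adjusted p = 0.0105) and -0.88 in primary tumours (SE 0.20, adjusted p = 0.00169). Bnip3, a hypoxia-induced gene of mitophagy, fell in allografts, from 175, 120, 68.8 and 120.5 CPM to 47.6, 39.6, 33.6 and 54.8 CPM with isotype, without overlap. Its averaged log2 fold change there was -1.20 (SE 0.30, edgeR adjusted p = 0.0145; up to 0.124, not called, in the fit of all 48 tumours or with the covariate for the animal number), while that of 0.21 in primary tumours was not called. The interaction of tumour kind with dose for Bnip3 was 1.70 with isotype (SE 0.82, edgeR adjusted p = 0.501), so a difference between the kinds was not established. Over the list 3 genes rose and 2 fell of 12 in allografts (median log2 fold change -0.09) and 3 rose and 1 fell in primary tumours (median 0.03). In either direction that is 5 and 4 of 12, against 13.7% and 26.3% of all genes called, and the count in primary tumours lies near its background.

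Genes around the family were read from lists for the same averaged dose comparison, in which 9.56% of all genes were called higher in allografts and 14.6% in primary tumours, 13.7% and 26.3% in either direction. Of 12 p53 targets outside the family 6 rose in allografts and 7 in primary tumours, and none fell, with a median log2 fold change of 0.51 and 0.46. Cdkn1a, the p53 target that halts the cell cycle, rose by 1.77 (SE 0.18) in allografts and by 2.34 (SE 0.17) in primary tumours on the log2 scale. Mdm2 rose by 0.48 and 0.46, Sesn2 by 1.04 and 0.60, Aen by 0.36 and 0.47 and Btg2 by 0.70 and 0.61 in the same order. Phlda3 rose in allografts (0.56), and Ccng1 (1.22) and Trp53inp1 (1.10) in primary tumours.

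Of 12 death receptor genes 4 rose in allografts and 5 in primary tumours, and none fell, against the same 9.56% and 14.6% of all genes called higher. Tnfsf10, which encodes the ligand TRAIL, rose by 1.09 and 1.49 on the log2 scale, Mlkl, the executor of necroptosis, by 0.80 and 0.68, and Casp8, which cleaves BID, by 0.45 and 0.25. Cflar, an inhibitor of caspase-8, rose in allografts (0.68), and the receptor Fas (1.26) and Ripk1 (0.17) in primary tumours. The median of the list was 0.41 in allografts and 0.18 in primary tumours.

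Among genes of the mitochondrial machinery downstream of the family, Birc3, an inhibitor of apoptosis, rose by 0.67 on the log2 scale in both kinds of tumour, while Birc5, which encodes survivin and is also needed in mitosis, fell by 0.63 and 0.84. Casp9, the initiator caspase of the pathway, rose in allografts (0.44), and Birc2, another inhibitor of apoptosis, rose in primary tumours (0.44). Of 12 tested upstream regulators 2 rose in allografts (Ddit3 1.26 and Trp53 0.40), and 2 rose (Ddit3 0.74 and Stat3 0.38) and 1 fell (E2f1 -0.46) in primary tumours. Ddit3 encodes the stress factor CHOP, and E2f1 is a cell cycle factor; the list medians were 0.07 and 0.04. These counts lie near the shares of all genes called, 13.7% and 26.3% in either direction, and are no result about the list.

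**Figure D4:**
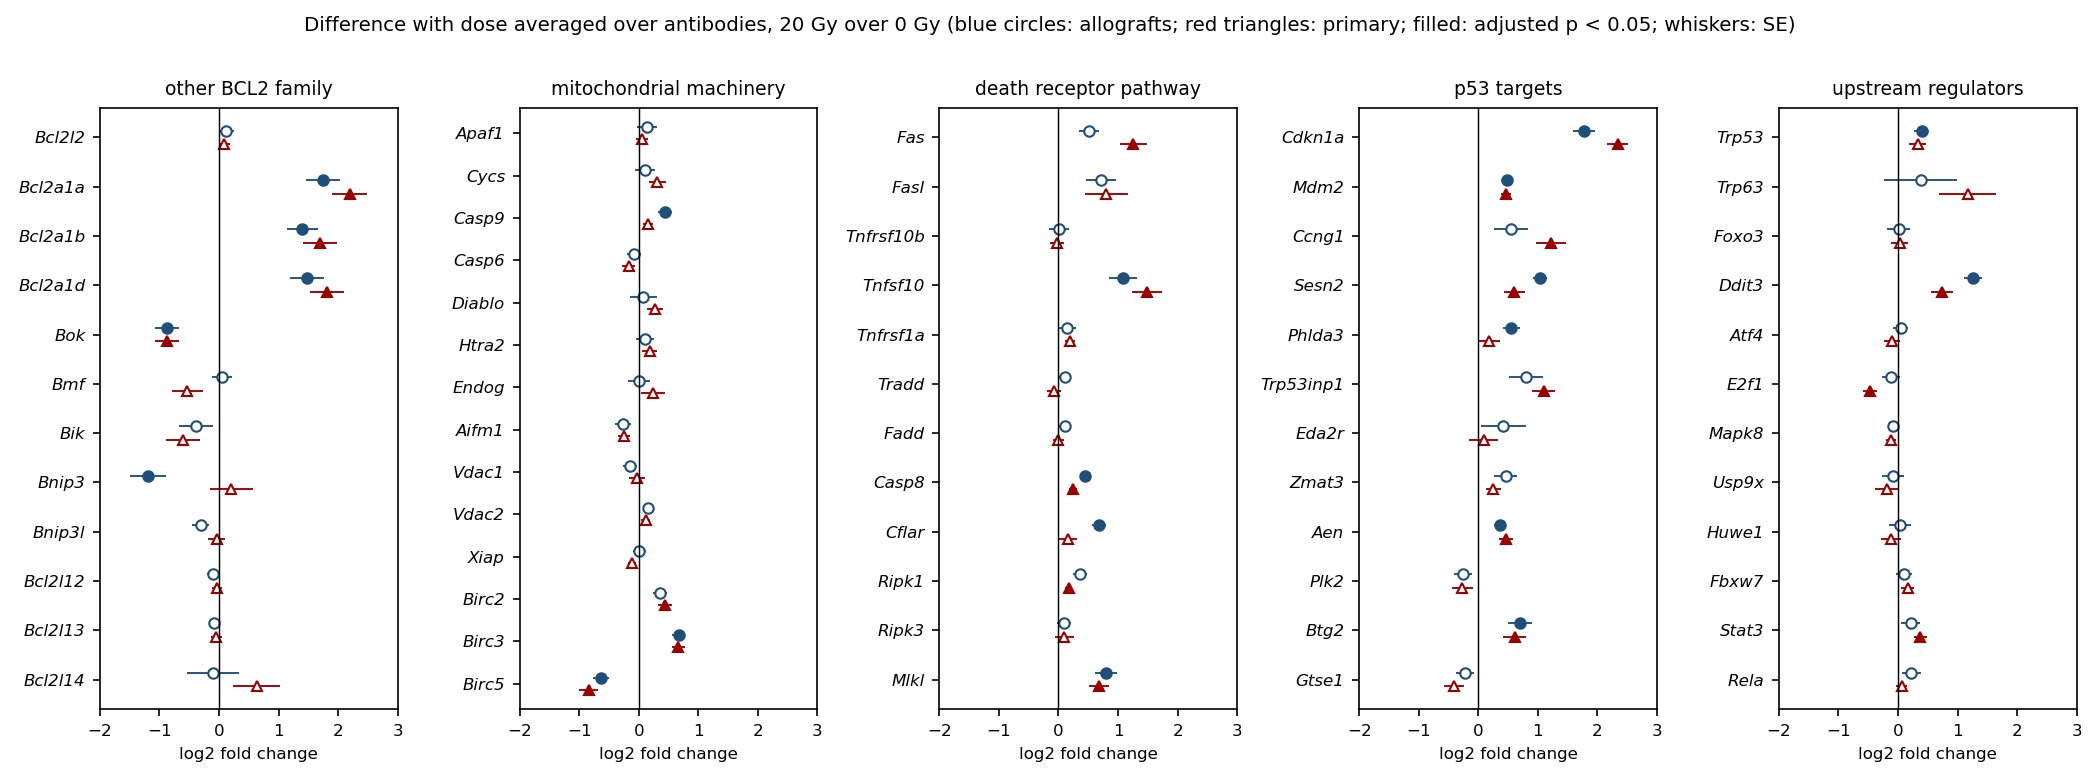
Log2 fold change at 20 Gy against 0 Gy averaged over antibodies (horizontal axis, error bars are standard errors) for genes of 5 lists. Blue circles are allografts and red triangles primary tumours, and filled symbols passed the adjusted p of 0.05 in edgeR's test. Bcl2a1a, Cdkn1a and Tnfsf10 lie far to the right in both kinds, and Bok lies to the left in both.

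Over the 48 tumours the strongest correlation between members was that of Bak1 with Bid (r = 0.75, and 0.68 with group means removed) and the lowest that of Bad with Bcl2l11 (r = -0.56, and -0.62 with group means removed). With group means removed Bax with Bad was the strongest (r = 0.71, against 0.55 before). The genes most like each member were ranked by Pearson's r of log2 CPM over the 48 tumours. They were sought among the 14402 genes that passed the filter and averaged 1 CPM or more. All r values share the same libraries and groups. Tlr6 (r = 0.85) and Cnr2 (0.84) were most like Mcl1, Ifi27l2a (0.84) and Hist1h2bc (0.83) most like Bax, and Ccdc86 (0.86) and Nfkbib (0.81) most like Bid. Tmem173 and Socs1 were most like Bak1 (0.80 each), and Mea1 and Anapc16 most like Bad (0.90 each). Abhd12 (0.79) and Itm2b (0.76) were most like Bbc3, and Slc9a3r1 (0.81) and 9130208D14Rik (0.80) most like Pmaip1. Lrrk1 (0.75) was most like Bcl2 and Cdk19 (0.78) most like Bcl2l11.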

How the data were processed

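Poly(A) RNA of 48 tumours was sequenced from stranded libraries (RNA integrity number above 7), per the labels' protocols. The authors deposited whole-number read counts per gene; Trimmomatic 0.36, STAR, HTSeq and the mm10 genome are named in the submitters' processing notes, and the annotation and strand setting of the counting are not given in the sources used here. Symbols were matched by Ensembl identifier to GENCODE M21 (36796 of 36854). Tumours were grouped by their labels; replicate numbers follow accession order and pair nothing. The members, the gene lists and the marker lists were chosen with earlier results of these data known. The rule for named genes was all 10 members whatever their values, the called genes of each list, and the genes most like each member.

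CPM values used edgeR's TMM scaling. Tests were edgeR 4.0.16 quasi-likelihood F tests (R 4.3.3, limma 3.58.1) after edgeR's filter by group, with 1 fit of the 4 groups of each tumour kind, 1 fit of 12 tumours for the comparison of kinds at 0 Gy, and 1 fit of 48 for interactions with kind; p-values were adjusted by Benjamini-Hochberg over all genes of a fit. The standard error is the log2 fold change divided by the square root of F. Correlations between members and likeness used log2 CPM with a prior count of 2. Correlations with summed markers used log2 of the CPM or summed CPM plus 0.5. The fits were tested on simulated data with 200 genes changed 2-fold. The isotype dose test recovered 93 of them in allografts and 142 in primary tumours, and called 4 and 12 unchanged genes. A gene that was not called may therefore have changed by that much. Alternatives were DESeq2 1.42.0 and its size factors, no filter, covariates for the first digit of the animal number and for muscle markers, fits of all 48 tumours or of 2 groups, each tumour left out in turn, and, added after seeing the data, the muscle-rich tumours left out. Tables and figures used Python 3.11.15, pandas 2.3.3, numpy 2.4.6 and matplotlib 3.10.9. Promoters are RefSeq windows; protein sequences were not used here. Results that need certain genes of the lists or of the ranking by likeness are not reported here.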

Additional observations from a re-analysis of the deposited data

Results flagged for a closer look

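Single tumours that stood apart from their group by Dixon's criterion occurred in 11 of 96 groups tested (12 genes or sums in 8 groups). The criterion's rate of about 1 in 20 assumes independent, normally distributed values. The same tumours recur here over several genes, so an excess over that rate cannot be read from the count. In allografts, Bcl2 with 20 Gy and anti-PD-1 was at 27.9 CPM in replicate 4 with the next at 20.1 CPM, and Bak1 with 0 Gy and anti-PD-1 was at 144.4 CPM in replicate 2 with the next at 178 CPM. Bcl2l11 with 0 Gy and isotype was at 41.9 CPM in replicate 4 with the next at 54.8 CPM, and Pmaip1 with 0 Gy and anti-PD-1 was at 16.1 CPM in replicate 4 with the next at 10.2 CPM.

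Replicate 1 of the allografts with 20 Gy and isotype was high for the summed Bcl2a1 genes, at 149.9 CPM with the next at 63.9 CPM, and for Bok, at 23.04 CPM with the next at 18.5 CPM. In primary tumours, Bbc3 with 0 Gy and isotype was at 19.9 CPM in replicate 2 with the next at 11.6 CPM, and Pmaip1 with 0 Gy and isotype was at 11.1 CPM in replicate 8 with the next at 6.83 CPM. The summed Bcl2a1 genes with 0 Gy and isotype were at 35.0 CPM in replicate 4 with the next at 17.4 CPM. Bak1 with 20 Gy and isotype was at 160 CPM in replicate 5 with the next at 132.2 CPM, and Bad with 20 Gy and anti-PD-1 was at 72.3 CPM in replicate 1 with the next at 41.8 CPM.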

How the results depend on the processing

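No direction of a called member reversed under any alternative run. No paired analysis was possible because the labels give no replicate numbers that link tumours across groups. Counts of called members are given out of 10; the cause of each change was not tested, and fewer tumours are fitted where some are left out. In allografts with isotype the count of 3 became 1 with the digit covariate and 1 in the fit of 48 tumours, and 1 to 3 with 1 tumour left out (1 without 0 Gy isotype replicate 1, 2 or 4 or 20 Gy isotype replicate 1 or 4). In allografts with anti-PD-1 the count of 2 became 1 with DESeq2's size factors, 1 without the filter, 1 with the digit covariate, 1 with the muscle covariate, 1 without the muscle-rich tumours, 4 by DESeq2, 0 in the fit of 48 and 0 in the fit of 2 groups. It was 1 to 2 with 1 tumour left out (1 without 0 Gy isotype replicate 1, 2 or 4, 0 Gy anti-PD-1 replicate 1 or 2, 20 Gy isotype replicate 2, 3 or 4, or 20 Gy anti-PD-1 replicate 2 or 3). In primary tumours with isotype the count of 4 became 2 without the filter, 2 with the muscle covariate and 2 without the muscle-rich tumours, and 2 to 4 with 1 tumour left out (2 without 0 Gy isotype replicate 5 or 6 or 20 Gy isotype replicate 1 or 5). With anti-PD-1 the count of 1 became 2 by DESeq2 and 2 in the fit of 48, and 0 without the filter, 0 with the digit covariate, 0 without the muscle-rich tumours and 0 in the fit of 2 groups. It was 0 to 2 with 1 tumour left out (2 without 0 Gy isotype replicate 7 or 0 Gy anti-PD-1 replicate 4 or 6). For both treatments in primary tumours the count of 5 became 3 without the filter, 3 in the fit of 2 groups and 0 without the muscle-rich tumours, and 3 to 5 with 1 tumour left out (3 without 0 Gy isotype replicate 6 or 8 or 20 Gy anti-PD-1 replicate 6 or 7). The baseline count of 1 became 0 without the filter, and 0 to 2 with 1 tumour left out (2 without primary replicate 8). The averaged dose counts stayed within 1.5 times: 5 to 7 in allografts and 4 to 7 in primary tumours over all alternatives. The number of tumours in a group limits the precision.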
